A study of Mus musculus with 3 samples.

Results

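The 58 genes described here encode RNA-binding proteins that control splicing, stability, transport and translation of mRNA in neurons, together with their broadly expressed paralogs and a few core splicing factors. They were chosen by name and not by their values, though with earlier results of these data known. Ensembl identifiers of the deposited data were matched to gene symbols, and all 58 were found among the 41388 genes listed. Of the 58, 15 are called neuronal paralogs here and 10 are called general paralogs of the same 7 families. The other 33 belong to families that were not divided in this way or to none.

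The libraries came from dorsal root ganglia of C57BL/6 mouse embryos at 14.5 days post coitum that carried a Ret-EGFP reporter. Genotype labels write Tg(Ret-EGFP)SJ, whereas the design text describes heterozygotes with EGFP knocked into the Ret locus, a state that all 3 pools share. Ganglia of segments T11 to S1 were dissociated and sorted by fluorescence, and the sorted cells were pooled. Library A pooled 100 ganglia of 5 embryos, library B 100 ganglia of 6 embryos, and library D 80 ganglia of 4 embryos, each pool mixing both sexes. These 3 pools form the only group, and no unsorted or fluorescence-negative sample is among those used here. SDs below measure the spread between 3 pools, and p-values rest on the same 3 pools.

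Library A held 20181558 assigned counts, library B 20355302 and library D 29061086. Levels are given as TPM, the length-corrected share of all counted transcripts on a common scale, computed from the deposited counts and gene lengths. Ret itself, the locus behind the reporter, had 51.6, 72.0 and 56.0 TPM in libraries A, B and D. All 14 sensory neuron markers reached 1 TPM, led by Tubb3 at 14755 ± 2579 TPM, Stmn2 at 8246 ± 1229.6 TPM and Gap43 at 8143 ± 167 TPM (SD, n = 3 each). Summed markers of Schwann and satellite glia came to 617, 995 and 1013 TPM in libraries A, B and D, against 47438, 42422 and 42437 TPM for the sensory neuron markers. Of the 12 glial markers 9 reached 1 TPM, led by S100b at 342.7 ± 92.55 TPM, Fabp7 at 310.4 ± 109.0 TPM and Ednrb at 82.18 ± 17.23 TPM (SD, n = 3 each). Gfap had 0, 1 and 1 counts. Mesenchymal markers summed to 19.6, 71.6 and 20.0 TPM, cycling cell markers to 70.1, 86.7 and 59.9 TPM, erythroid markers to 84.8, 74.8 and 304.3 TPM, and macrophage markers to 20.7, 12.2 and 8.85 TPM in libraries A, B and D. Skeletal muscle markers summed to 24.1, 27.4 and 34.5 TPM with no counts of Myog, endothelial markers to 4.86, 4.21 and 3.92 TPM, and spinal cord markers to 9.42, 4.798 and 4.47 TPM with no counts of Mnx1, Olig2 or Lbx1. Most of the muscle sum came from Acta1 (17.67, 17.26 and 24.43 TPM) and Tnnt1 (6.403, 9.856 and 9.747 TPM in libraries A, B and D). Slc5a7, at 9.275, 4.731 and 4.389 TPM, made up nearly all of the spinal cord sum. The part that these other cells had in the levels below was not tested, and in bulk RNA fewer cells of a type and less RNA per cell cannot be told apart.

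Differentiating neurons exchange broadly expressed RNA-binding proteins for neuronal paralogs. PTBP1, which represses neuron-specific exons, gives way to PTBP2, while neuronal ELAVL, RBFOX, NOVA and CELF proteins and the microexon regulator SRRM4 set neuronal splicing and mRNA half-lives. Another group, among them FMRP, IGF2BP, Staufen and CPEB proteins, packages mRNAs for transport along the axon and holds back or releases their translation. The LIN28 and IGF2BP proteins are fetal growth regulators, and their mRNAs are classical targets of the let-7 microRNAs.

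Among the 58 genes, 53 (91.4%) averaged at least 1 TPM, compared with 13897 (33.6%) of the 41388 genes listed. 39 of them averaged at least 10 TPM and 7 at least 100 TPM. The median gene of the set had 22.8, 19.2 and 14.1 TPM in libraries A, B and D, against 11.75, 11.45 and 8.522 TPM for all genes that averaged at least 1 TPM. The 7 genes at 100 TPM or more were Elavl4, Hnrnpk, Rbms3, Ptbp2, Elavl2, Rbfox1 and Srsf3. The 5 genes under 1 TPM were Msi2, Lin28a, Srsf1, Mbnl3 and Rbm24, of which only Msi2 had more than 6 counts in any library.

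The ELAVL family showed the widest separation between neuronal and general paralogs of the 7 families. ELAVL proteins bind AU-rich elements and stabilise the mRNAs that hold them. Elavl4 (HuD; ENSMUSG00000028546, chr4:110203722-110351909, minus strand, GRCm38.p2), which stabilises growth-associated mRNAs such as that of Gap43, had 474, 342 and 425 TPM in libraries A, B and D. It had the highest level of the 58 genes, 414 ± 66.7 TPM (SD, n = 3), above 96.9% of the genes that averaged at least 1 TPM. Elavl2 (HuB) had 228.2, 148.5 and 118.1 TPM and Elavl3 (HuC) 60.6, 69.7 and 87.2 TPM in the same libraries. Elavl2 was highest in library A and Elavl3 in library D, so they ordered the libraries differently. Elavl1 (HuR), the paralog present in most tissues, had 10.61, 10.66 and 9.265 TPM, below every neuronal member in every library. Within libraries the summed neuronal members exceeded Elavl1 by 6.17, 5.72 and 6.09 on the log2 scale in libraries A, B and D, a mean of 5.99 ± 0.24 (SD) or 63.6-fold. For single pairs the mean log2 ratio was 5.33 ± 0.29 for Elavl4 over Elavl1, 3.97 ± 0.40 for Elavl2 over Elavl1 and 2.82 ± 0.37 for Elavl3 over Elavl1. With the longest annotated transcript as the length of each gene, Elavl2 over Elavl1 became 4.88. Each ratio between paralogs was tested over the 3 libraries by an exact permutation of signs, two-sided. Its smallest possible p with 3 libraries is 0.25, which all 7 family ratios reached, so none can pass 0.05 (adjusted p = 0.25 over the 7 families).

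The promoters of the highest and of the general member are shown because both lie in CpG-rich sequence although their levels differ. They run from 250 bases before to 50 after the RefSeq gene start, on the minus strand of GRCm38.p6, at chr4:110351862-110352161 for Elavl4 and chr8:4325051-4325350 for Elavl1. Capitals mark CCAAT boxes. The ratio of observed to expected CpG was 0.944 for Elavl4 and 1.07 for Elavl1.
Elavl4: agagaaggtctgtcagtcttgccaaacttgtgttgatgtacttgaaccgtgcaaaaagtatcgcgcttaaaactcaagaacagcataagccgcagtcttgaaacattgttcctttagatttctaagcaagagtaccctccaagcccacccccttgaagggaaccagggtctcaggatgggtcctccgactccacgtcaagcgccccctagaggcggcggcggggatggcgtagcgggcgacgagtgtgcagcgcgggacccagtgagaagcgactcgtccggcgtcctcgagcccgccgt
Elavl1: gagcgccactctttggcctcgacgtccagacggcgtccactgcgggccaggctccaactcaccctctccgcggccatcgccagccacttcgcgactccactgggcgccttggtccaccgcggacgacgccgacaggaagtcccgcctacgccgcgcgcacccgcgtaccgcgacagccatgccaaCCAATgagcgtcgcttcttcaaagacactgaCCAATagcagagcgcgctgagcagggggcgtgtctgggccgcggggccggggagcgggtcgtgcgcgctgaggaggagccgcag

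Of the RBFOX genes, Rbfox1 was the highest. These proteins bind UGCAUG beside alternative exons, and RBFOX3 carries the epitope of the neuronal antibody NeuN. Rbfox1 had 149, 138 and 176 TPM in libraries A, B and D, Rbfox3 had 47.04, 76.18 and 62.64 TPM, and Rbfox2, the broadly expressed member, had 78.03, 63.69 and 39.29 TPM. Rbfox1 and Rbfox3 together stood 1.33, 1.75 and 2.60 above Rbfox2 on the log2 scale, on average 1.90 ± 0.65 or 3.72-fold in TPM and 2.34-fold in CPM, counts scaled to the library total and not divided by length. Rbfox1 exceeded Rbfox2 in every library, with a log2 ratio of 1.41 ± 0.66 in TPM. In CPM that ratio was 0.58 ± 0.66, and only 0.11 in library A. Rbfox3 and Rbfox2 overlapped: their log2 ratio was -0.73, 0.26 and 0.67 in libraries A, B and D, so Rbfox2 was the higher of the pair in library A and Rbfox3 in libraries B and D (exact p = 1), and the mean of 0.07 ± 0.72 became -0.27 with CPM and 0.86 with the longest annotated transcript as length.

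NOVA proteins, neuronal splicing regulators found through a paraneoplastic antigen, were encoded by genes near the lower end of the set. Nova1 had 2.148, 1.435 and 1.446 TPM and Nova2 1.465, 1.485 and 1.846 TPM in libraries A, B and D, from 114, 80 and 131 counts and 93, 99 and 200 counts. Both were above 1 TPM in all 3 libraries, and their log2 ratio, Nova2 over Nova1, was -0.05 ± 0.46, within the spread between libraries (exact p = 1), and 0.21 with CPM. Exons of the antisense gene Gm26821, which had no counts, cover 31.7% of the Nova2 exon bases. Of the 50-base windows of Nova2, 30.8% occur in transcripts of other genes, so its level and its ratio to Nova1 are uncertain.

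Ptbp2 was the highest of the PTBP genes in every library. Ptbp2 (ENSMUSG00000028134, chr3:119718742-119783388, minus strand), the neuronal form, had 227.5, 192.0 and 125.0 TPM in libraries A, B and D. Ptbp1 (ENSMUSG00000006498, chr10:79854427-79864771, plus strand), the repressor of neuronal exons, had 9.77, 5.72 and 5.07 TPM, and Ptbp3 (ROD1) had 26.59, 16.03 and 14.89 TPM. The log2 ratio of Ptbp2 over Ptbp1 was 4.54, 5.07 and 4.62 in the 3 libraries, on average 4.75 ± 0.28 or 26.8-fold, and that of Ptbp2 over Ptbp3 averaged 3.25 ± 0.29 or 9.51-fold in TPM. The size of both ratios depended on the length used: Ptbp2 over Ptbp1 was 14.9-fold with the longest annotated transcript, and Ptbp2 over Ptbp3 was 4.28-fold in CPM. Overlapping genes cover 16.3% of the Ptbp1 exon bases.

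The promoters of this pair are printed because their composition differs: RefSeq GRCm38.p6 places that of Ptbp2 at chr3:119783339-119783638 on the minus strand and that of Ptbp1 at chr10:79854182-79854481 on the plus strand. Capitals mark GC boxes (GGGCGG on either strand) and CCAAT boxes. Ptbp2 holds 6 GC boxes and 74.7% G and C, and Ptbp1 holds 1 GC box, 1 CCAAT box and 58.3% G and C.
Ptbp2: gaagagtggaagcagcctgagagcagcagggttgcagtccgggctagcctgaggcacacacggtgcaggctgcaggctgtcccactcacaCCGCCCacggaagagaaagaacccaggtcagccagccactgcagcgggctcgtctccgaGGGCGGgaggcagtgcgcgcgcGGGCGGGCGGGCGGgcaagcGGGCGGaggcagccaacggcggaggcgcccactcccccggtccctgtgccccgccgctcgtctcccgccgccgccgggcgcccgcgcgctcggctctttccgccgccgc
Ptbp1: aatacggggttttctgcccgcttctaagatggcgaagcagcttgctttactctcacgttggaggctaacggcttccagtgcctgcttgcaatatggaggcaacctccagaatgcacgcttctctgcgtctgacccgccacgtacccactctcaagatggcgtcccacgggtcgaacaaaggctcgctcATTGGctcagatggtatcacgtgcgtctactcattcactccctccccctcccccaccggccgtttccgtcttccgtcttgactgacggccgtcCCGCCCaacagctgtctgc

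CELF genes gave no stable order between classes. CELF1 and CELF2 are broadly expressed regulators of splicing and mRNA decay, while CELF3 to CELF6 are expressed mainly in the nervous system. Celf4, which in mice restrains neuronal excitability, had 27.04, 29.17 and 24.35 TPM in libraries A, B and D, Celf3 13.65, 19.22 and 11.52 TPM, Celf5 10.58, 7.683 and 6.803 TPM and Celf6 3.315, 3.502 and 2.113 TPM. Of the general members, Celf1 had 35.1, 24.1 and 16.4 TPM and Celf2 5.18, 5.18 and 4.42 TPM. The 4 neuronal members summed to 0.86 ± 0.37 above the 2 general ones on the log2 scale, or 1.81-fold in TPM. With CPM in place of TPM the difference had the opposite sign, at -0.64, and with the mean of log2(TPM + 0.1) per class it was -0.15. Celf2 has the longest listed exon length of the set, 25884 bases, which lowers its TPM relative to its CPM. Celf4 over Celf1 was 0.16 ± 0.49 on the log2 scale, with Celf1 higher in library A and Celf4 higher in libraries B and D (exact p = 0.75), and -0.92 with CPM.

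For the SRRM genes the sum of the general members was higher. SRRM4 (nSR100) promotes the inclusion of neuronal microexons, which SRRM3 shares in part, whereas SRRM1 and SRRM2 are components of splicing complexes in all cells. Srrm4 had 12.58, 10.45 and 16.98 TPM and Srrm3 3.95, 4.04 and 2.62 TPM in libraries A, B and D, against 32.2, 30.48 and 40.55 TPM for Srrm1 and 19.14, 22.12 and 14.99 TPM for Srrm2. The log2 ratio of the neuronal to the general sum was -1.64, -1.86 and -1.50, on average -1.67 ± 0.18, so that the general pair summed to 3.17-fold the neuronal pair. Srrm4 was above Srrm2 in library D and below it in libraries A and B (exact p = 0.5). The sum of Srrm3 and Srrm4 was 16.53, 14.49 and 19.6 TPM in libraries A, B and D. Against Srrm2 alone that sum was lower in libraries A and B and higher in library D. The sign of the family ratio in library D thus rested on Srrm1.

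The KHDRBS family, STAR proteins that regulate the alternative splicing of neurexins, had its neuronal members higher in TPM. Khdrbs2 (SLM1) had 28.6, 20.2 and 18.3 TPM and Khdrbs3 (SLM2) 27.4, 48.6 and 47.3 TPM in libraries A, B and D, against 9.513, 13.99 and 11.06 TPM for Khdrbs1 (Sam68). Their sum exceeded Khdrbs1 by 2.48 ± 0.15 on the log2 scale, or 5.56-fold. Khdrbs2 was highest in library A and Khdrbs3 lowest there, a log2 ratio to Khdrbs1 of 0.95 ± 0.56 for the first and 1.81 ± 0.29 for the other in TPM. The Khdrbs3 ratio was 0.04 ± 0.29 in CPM, where Khdrbs1 was the higher of that pair in library A (-0.24), and 0.43 ± 0.29 with the longest annotated transcript as length. That of Khdrbs2 was 1.63 in CPM.

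Staufen proteins bind double-stranded RNA, and STAU2, the brain-enriched one, carries mRNAs into dendrites. Stau2 had 79.5, 71.6 and 50.3 TPM in libraries A, B and D and Stau1 68.3, 61.6 and 41.6 TPM, so the class difference was small but had 1 sign in all 3 libraries: 0.22, 0.22 and 0.27 on the log2 scale, or 1.18-fold. Its SD, 0.03, was the smallest of the 7 families.

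**Figure D1:**
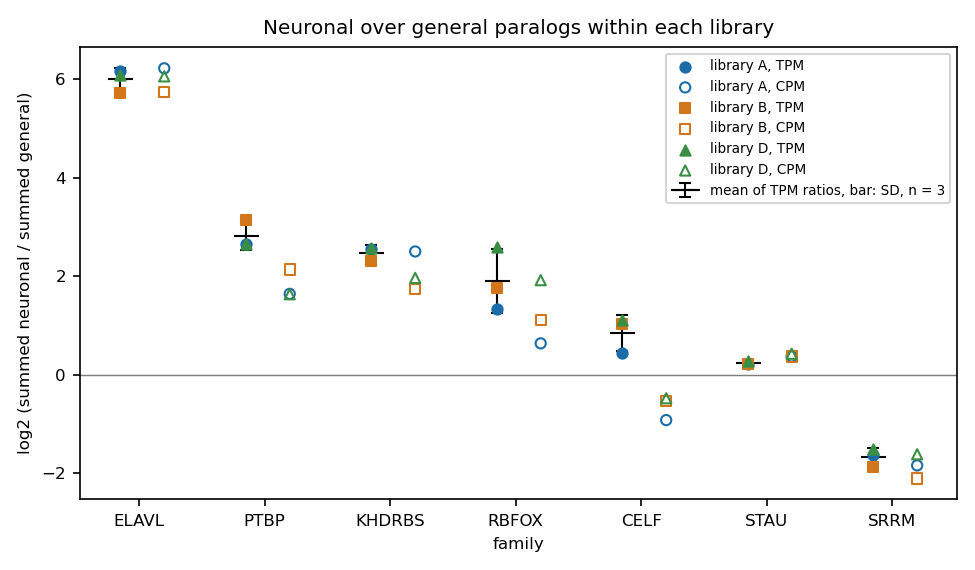
Log2 ratio of summed neuronal to summed general paralogs within each library for 7 families, from TPM (filled symbols, with mean and SD of 3 libraries) and from CPM (open symbols). ELAVL, PTBP, KHDRBS, RBFOX and STAU lie above 0 and SRRM below 0 on both scales, while CELF averages 0.86 by TPM and -0.64 by CPM.

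Across the 7 families, 6 had a mean ratio above 0 in TPM and 1 (SRRM) below it, and CELF changed sign with CPM. In the class medians the 15 neuronal paralogs reached 28.6, 48.6 and 47.3 TPM in libraries A, B and D, against 22.9, 19.1 and 14.9 TPM for the 10 general paralogs. All 25 averaged at least 1 TPM. Of the 30 pairs of single genes that could be computed, adjusted exact p-values were at least 0.3.

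Muscleblind proteins, which drive the switch from fetal to adult splicing, differed in level. Mbnl2 had 107, 73.9 and 77.1 TPM in libraries A, B and D, Mbnl1 (ENSMUSG00000027763, chr3:60501252-60629748, plus strand) 50.04, 19.17 and 10.86 TPM, and Mbnl3 1, 6 and 1 counts. Mbnl2 was above Mbnl1 in every library, by 1.10, 1.95 and 2.83 on the log2 scale, the gap being narrowest in library A, where Mbnl1 was highest. Qk, a regulator of glial mRNAs, had 5.607, 8.084 and 4.545 TPM, highest in library B, where the mesenchymal and cycling marker sums were also highest and the glial sum (995 TPM) was close to that of library D (1013 TPM). Msi1, a translational repressor of neural progenitors, had 2.77, 3.77 and 3.29 TPM and Msi2 0.900, 0.905 and 0.847 TPM, a log2 ratio of 1.88 ± 0.23 in TPM and 1.04 in CPM.

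In the family of the fragile X protein, a polyribosome-bound repressor of dendritic translation, Fxr1 was the highest. It had 94.25, 67.24 and 65.4 TPM in libraries A, B and D, against 7.03, 5.52 and 4.98 TPM for Fmr1 and 9.84, 12.2 and 9.17 TPM for Fxr2. Fxr1 exceeded Fmr1 by 3.75, 3.61 and 3.72 on the log2 scale, or 12.9-fold in TPM. The excess was 3.34-fold in CPM (log2 ratio 1.74) and 4.89-fold with the longest annotated transcript as length (2.29). Fxr2 over Fmr1 averaged 0.84 ± 0.33 with TPM, -0.42 with CPM and 0.16 with the longest transcript. Exons of Dnajc19 on the opposite strand, with 557, 560 and 1197 counts, cover 7.66% of those of Fxr1.

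The fetal IGF2BP and LIN28 genes were detected at different levels. IGF2BP1 binds Actb mRNA and carries it to the growth cone. Igf2bp3 had 17.3, 17.2 and 13.3 TPM in libraries A, B and D, Igf2bp1 10.91, 8.559 and 5.515 TPM, and Igf2bp2 9.322, 11.15 and 5.397 TPM. The log2 ratio of Igf2bp1 over Igf2bp2 was -0.04 ± 0.31, within the spread between libraries (exact p = 1), and 0.40 with CPM. Malsu1, with 353, 609 and 87 counts in libraries A, B and D on the opposite strand, covers 35.2% of the Igf2bp3 exon bases, and reads from the overlap cannot be told apart without strand. Lin28b, which blocks let-7 maturation, had 3.08, 1.42 and 1.73 TPM from 126, 61 and 121 counts, while Lin28a had 5, 4 and 6 counts.

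Because these 5 genes are textbook targets of let-7, their 3′ UTRs in GENCODE M21 were read for the complement of the let-7 seed, CTACCTC. All 8 mature let-7 microRNAs in the RefSeq table (let-7a to let-7g and let-7i, 5p arms) share the seed GAGGUAG, shown in capitals in let-7a; in the UTR sites, capitals mark its complement. Mature microRNAs were not measured in these libraries.
mmu-let-7a-5p: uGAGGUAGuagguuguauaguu
Igf2bp1, site 1: gctgtgcgaagtaaaCTACCTCaaggt
Igf2bp1, site 2: cagcagtgctattaaCTACCTCagccc
Igf2bp1, site 3: gtataaatggatgaaCTACCTCagtcc
Igf2bp1, site 4: acttttggttttaatCTACCTCttagc
Lin28b, site 1: acccgggcgggaagtCTACCTCatgca
Lin28b, site 2: tatacttgttagtaaCTACCTCtgagt
Lin28b, site 3: gtttacagcacatggCTACCTCccagc
Lin28b, site 4: aaatgatggcaccgaCTACCTCttcaa
Lin28a, site 1: gcacagcctgttgaaCTACCTCatttt
Lin28a, site 2: gagatcgccacaaacCTACCTCactgt
Igf2bp2: acacacaaataaaagCTACCTCaggtg
Igf2bp3: tgcatttttactcaaCTACCTCaggta

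Igf2bp1 and Lin28b hold 4 such sites each and Lin28a 2, while Igf2bp2 and Igf2bp3 hold 1 each. Over the 58 genes, 11 (19.0%) hold at least 1 site, compared with 1857 (8.83%) of 21039 genes with an annotated 3′ UTR. Of the 58, only Igf2bp1 and Lin28b (3.45%) hold 3 or more, against 32 (0.152%) of the 21039 genes. The remaining 6, Cpeb1, Cpeb2, Hnrnpr, Mbnl3, Nova1 and Syncrip, hold 1 site each. The IGF2BP and LIN28 genes, known as targets beforehand, are among the 11, so both shares depend on the choice of the 58 genes. Neither share was corrected for the length of the 3′ UTR, which in the 11 ran from 1315 bases (Cpeb1) to 19419 bases (Hnrnpr). A match is a description of sequence and was not tied to a level. Hmga2, another textbook target, had 26, 46 and 53 counts in libraries A, B and D.

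Among the CPEB genes, whose products lengthen poly(A) tails and thereby time translation, Cpeb1 was the highest. Cpeb1 had 28.69, 26.99 and 12.98 TPM in libraries A, B and D, Cpeb4 16.8, 11.4 and 8.93 TPM, and Cpeb2 5.185, 5.518 and 3.429 TPM. Cpeb1 over Cpeb2 averaged 2.23 ± 0.28 on the log2 scale and Cpeb4 over Cpeb2 1.37 ± 0.32, positive in all 3 libraries for both. In CPM the first of these was 1.46. All of them were lowest in library D. Pum2, a PUF-family repressor, had 28.7, 21.1 and 16.7 TPM, and Larp1, which binds the mRNAs of ribosomal proteins, 35.13, 30.12 and 17.05 TPM. Both of these were also lowest in library D. Rbms3, which binds single-stranded nucleic acid, had 306.0, 184.2 and 225.5 TPM, the third of the set by the mean of the libraries but second in libraries A and D. Rbm24, a muscle splicing regulator, had 0, 0 and 2 counts in libraries A, B and D, which allows at most 3 counts in each of the first pair by counting error alone.

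Among proteins of general mRNA processing, Hnrnpk, a poly(C)-binding protein, had 294, 266 and 222 TPM in libraries A, B and D, second to Elavl4 by the mean of the libraries and below Rbms3 in libraries A and D. Of its 50-base windows, 17.8% occur in transcripts of 3 other genes. Hnrnpa1 had 71.8, 53.3 and 52.4 TPM, but 28.2% of its 50-base windows occur in transcripts of other genes, 20 of them, most often Gm10052, and its level is uncertain. Hnrnpr had 22.96, 18.29 and 19.46 TPM, and its paralog Syncrip (hnRNP Q) had 22.7, 17.7 and 12.9 TPM. Tardbp (TDP-43, the protein deposited in motor neuron disease) had 53.1, 35.8 and 31.5 TPM. Masp2 on the opposite strand, with 0, 2 and 1 counts, covers 23.3% of the Tardbp exon bases, and 21.0% of the Tardbp windows occur in other transcripts. Of the splicing machinery, Sf3b1, which holds the branch point, had 91.7, 49.8 and 54.9 TPM, U2af1, which reads the 3′ splice site, 33.45, 31.07 and 43.72 TPM, and Srsf3, an SR protein, 111.5, 101.0 and 108.8 TPM. Of the U2af1 windows, 21.7% occur in other transcripts. Sf3a2, of the U2 particle, had 11.02, 34.15 and 3.838 TPM and is described with the variation between libraries.

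Srsf1 could not be read as a level. This SR protein gene (ENSMUSG00000018379, chr11:88047373-88053755, plus strand) had 3 counts in each library, or 0.0586 ± 0.0157 TPM, while Srsf3 had 107 ± 5.46 TPM. A second copy, ENSMUSG00000098301, is listed on the patch scaffold MG3829_PATCH and had no counts in any library. Of its 5356 exon bases, 5354 lie at the same listed coordinates as Srsf1 exons. The bases themselves were not compared. Neighbours of Srsf1 with a copy on the same scaffold were also near 0: Vezf1 had 0, 0 and 2 counts, Cuedc1 0, 3 and 4, Mrps23 4, 1 and 9, and Ccdc182 none in libraries A, B and D. Of the genes at the sides of this stretch with no listed copy, several had no counts and others had many, such as Dynll2 with 612, 712 and 1447 counts, 67.8 kb before the Srsf1 start, and Msi2 with 71, 75 and 114 counts. Of the 58 genes, only Srsf1 has such a copy, and how multiply mapped reads were counted is not given in the sources used here.

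**Figure D2:**
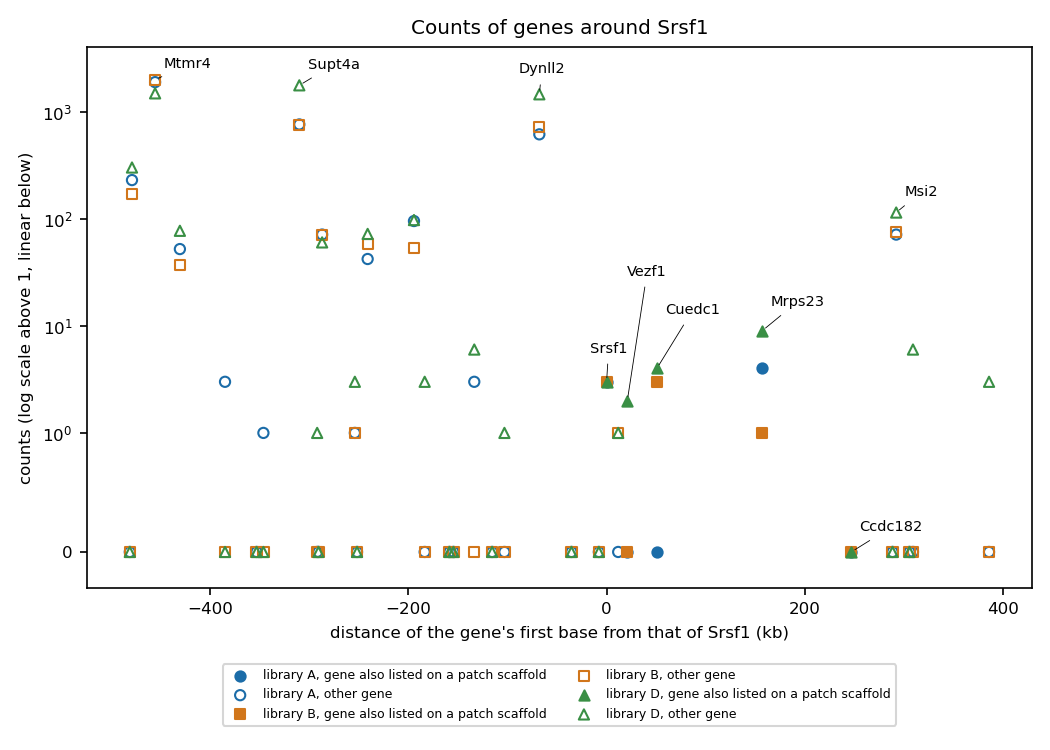
Counts of genes by the distance of their start from the Srsf1 start in kb, for libraries A, B and D, with filled symbols for genes also listed on a patch scaffold and open symbols for the rest. Srsf1 sits at 3 counts in each library, and the filled genes to its right reach at most 9, against 1447 for Dynll2 in library D.

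Lists of other RNA-binding and splicing genes were set beside the members. Of 21 further hnRNP and poly(C)-binding genes, 21 averaged at least 1 TPM with a median of 32.6 ± 2.27 TPM, led by Pcbp3 (579.0 ± 158.6 TPM), Hnrnpa2b1 (516.6 ± 71.8 TPM) and Hnrnpc (266 ± 35.1 TPM). All 11 other SR and TRA2 genes passed that level, with a median of 43.3 ± 7.00 TPM and Srsf7 (485 ± 52.0 TPM), Srsf2 (119 ± 25.7 TPM) and Srsf5 (99.3 ± 24.6 TPM) at the top. So did all 21 genes of the U1 and U2 particles and the 3′ splice site, with a median of 49.0 ± 15.1 TPM, led by Sf3b6 (409.5 ± 86.7 TPM), Sf3b2 (276.5 ± 31.9 TPM) and Phf5a (239.5 ± 50.5 TPM). Of 29 other genes of mRNA stability, transport and translation, 25 passed it, with a median of 10.9 ± 0.398 TPM and G3bp2 (172 ± 37.5 TPM), Fubp1 (82.4 ± 15.4 TPM) and Ybx1 (79.7 ± 16.02 TPM) on top. All 7 FET and paraspeckle genes passed it, with Nono (171 ± 48.5 TPM), Matr3 (104 ± 49.7 TPM) and Ewsr1 (37.5 ± 12.3 TPM) highest. Neither epithelial splicing regulator did: Esrp1 had 6, 7 and 8 counts and Esrp2 0, 0 and 1. The class medians of the members over library means were 41.1 TPM for the neuronal paralogs, 19.0 TPM for the general ones and 15.9 TPM for the rest. The list medians above are instead means of the library medians. On the measure used for the classes they were 34.6 TPM for the hnRNP list and 45.3 TPM for the SR list. For the U1 and U2 list that value was 52.8 TPM, and for the stability, transport and translation list 11.15 TPM.

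**Figure D3:**
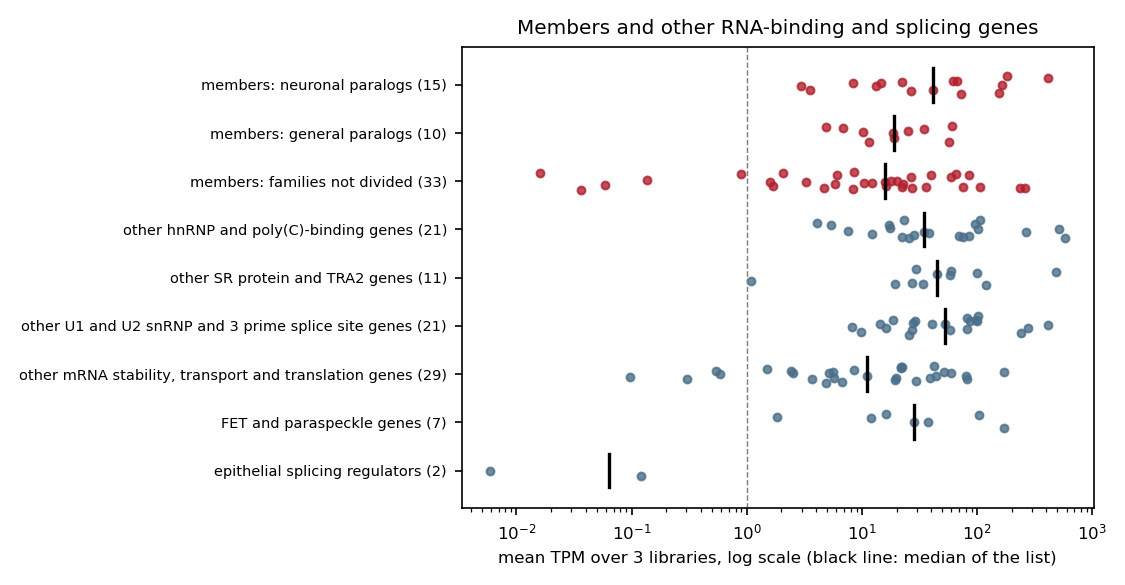
Mean TPM over 3 libraries on a log axis for the 3 classes of members and for lists of other RNA-binding and splicing genes, with a black line at the median of each list. The neuronal paralogs, at a median of 41.1 TPM, lie between the SR list at 45.3 TPM and the hnRNP list at 34.6 TPM.

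Upstream regulators and textbook targets were also read. Rest, the repressor of neuronal genes outside neurons, had 0.676, 0.748 and 0.910 TPM in libraries A, B and D. The host genes of miR-124, a repressor of Ptbp1, had 20.6, 6.12 and 4.87 TPM (Mir124a-1hg) and 12.5, 7.25 and 9.63 TPM (Mir124-2hg). Dlg4, whose Ptbp-controlled exon is a classical example of that switch, had 9.29, 9.25 and 9.04 TPM, and Map1b, an FMRP target, had 2316, 2171 and 1668.5 TPM. Agrn, a NOVA target, had 28.0, 17.2 and 13.5 TPM. Gene counts do not show which exons or splice forms were used.

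In the test of variation between libraries, 1 of the 54 members tested, Sf3a2, was called at an adjusted p up to 0.05 (edgeR goodness-of-fit), against 24 of 13530 genes tested, or 0.177%. The members Srsf1, Mbnl3, Rbm24 and Lin28a had too few counts to be tested. Sf3a2 (ENSMUSG00000020211, chr10:80798198-80804924, plus strand) had 222, 723 and 132 counts in libraries A, B and D, so library B was highest and library D lowest. Its log2 CPM differed from the mean of the other libraries by -0.23, 2.22 and -1.99 in libraries A, B and D (edgeR adjusted p = 0.0348). In library B the mesenchymal sum was also highest, 71.6 TPM against 19.6 and 20.0 TPM, with 6 of its 9 markers at 1 TPM or more and Col1a1 among the genes called (edgeR adjusted p = 5.8e-05). Also called were the erythroid genes Hbb-bs and Hbb-bt (edgeR adjusted p = 0.0223 and 0.0267), highest in library D. The part of mesenchymal cells in the Sf3a2 level was not tested. Plekhj1, on the opposite strand with 628, 901 and 958 counts in libraries A, B and D, covers 16.1% of the Sf3a2 exon bases. The call was lost without any 1 of the 3 libraries (edgeR adjusted p 0.0634 to 0.964) and with the trend in GC content removed (edgeR adjusted p = 0.103), where the differences were 1.42 in library B and -1.67 in library D.

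Mbnl1 was the other member under an unadjusted p of 0.05, at 0.00274 (edgeR adjusted p = 0.306). Its log2 CPM in library A exceeded the mean of the others by 1.62. The macrophage marker sum was highest in library A as well, 20.7 TPM against 12.2 and 8.85 TPM. By the mean of the libraries 4 of 7 macrophage markers reached 1 TPM, and their part in the Mbnl1 level was not tested. Members with an unadjusted p under 0.05 were 2 of 54 (3.70%), against 827 (6.11%) of all genes tested. Between the highest and lowest library the median member spanned 0.56 on the log2 CPM scale, against 0.68 for all genes tested.

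**Figure D4:**
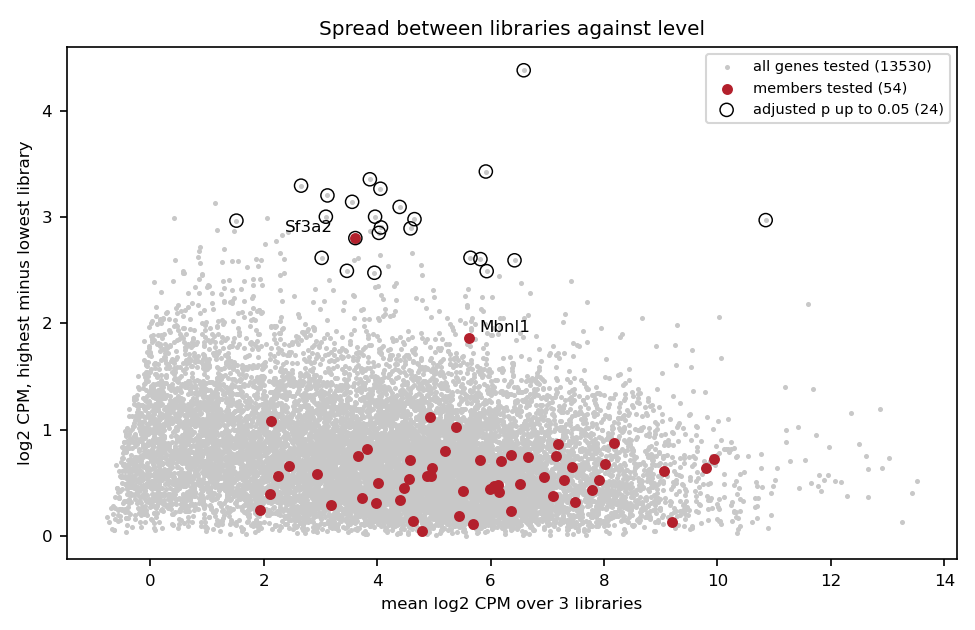
Range between the highest and lowest library in log2 CPM against mean log2 CPM, with all 13530 genes tested in grey, 54 members in red, and circles around the 24 genes called. Sf3a2 (range 2.80) lies among the circled genes and Mbnl1 (1.86) below them.

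Of the 53 members at 1 TPM or more, 35 (66.0%) were lowest in library D in TPM, against 55.7% of all genes at that level, and 32 (60.4%) were highest in library A, against 42.6%. Members are long: their median listed length was 6406 bases against 3346 bases for all genes at 1 TPM or more. Among genes of at least 4000 bases, 70.1% were lowest in library D and 56.8% highest in library A. After a trend with gene length was removed, the median member differed from the mean of the other libraries by -0.17 in library A and 0.20 in library D on the log2 CPM scale, against 0.12 and -0.02 without that step. The sign of the set's difference in both libraries was opposite with and without that correction.

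Promoters of 49 of the 58 members had an entry in the RefSeq table. Their median content of G and C was 65.7% against 52.7% over all 27025 promoters, and the observed to expected CpG ratio was above 0.6 in 39 of 49 (79.6%) against 36.4%. Among neuronal paralogs it was above 0.6 in 7 of 12 (58.3%), and among general paralogs in 6 of 7 (85.7%). Celf4, Khdrbs3 and Stau2 of the neuronal and Rbfox2, Ptbp3 and Khdrbs1 of the general paralogs had no entry. The low ratios of Rbfox1 (0.38), Rbfox3 (0.205), Srrm3 (0.329) and the general Celf2 (0.258) came from starts well inside the listed gene. So did that of Srrm2 (0.983), while the low Elavl2 (0.41) and Celf3 (0.373) lay near its end. The part of this in the class difference was not tested. The GC box GGGCGG, searched on both strands, occurred in 61.2% of the member promoters and in 35.9% of all. The CCAAT box, CCAAT on either strand, occurred in 36.7% against 37.9%. TATAAA occurred in 10.2% against 14.2%, in Celf2, Cpeb1, Elavl3, Rbms3 and Srsf3. Of the left and right parts of the REST-binding element, TCAGCACC was found in U2af1 alone (2.04% against 1.59%) and GGACAGCG in no member (0% against 1.30%). Within the printed promoters, Ptbp2 holds GC boxes that overlap or adjoin one another.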

How the data were processed

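For each library the authors deposited unnormalised counts, CPM and RPKM by Ensembl gene. The labels' protocols describe SMARTer amplification of 10 ng RNA, 12 PCR cycles and mention no molecular identifiers, so floors cover counting error only. GRCm38.p2, Subread and featureCounts 1.4.5 are named in the submitters' processing notes. Whether strand was used, and how multiply mapped reads were handled, is not given in the sources used here. Deposited CPM and deposited RPKM equalled values recomputed from the counts and lengths, with largest differences of 4.7e-11 and 6.4e-12. The deposited length, the summed exons of a gene, gave TPM. The Ret-EGFP ganglia are the only group used here, so no comparison between conditions was made.

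Of the 41388 identifiers, 40254 matched a symbol in GENCODE M21. Members and lists were chosen with earlier results of these data known. All 58 members are named; from other lists the text names the 3 genes with the highest mean TPM, any gene called and, for marker lists, genes with no counts. Of the leading genes in the marker lists, only those of sensory neurons and glia, with Acta1, Tnnt1 and Slc5a7, are named. The rest are given as sums. Genes beyond that rule (Ret, Gfap, overlapping genes, neighbours of Srsf1 and further regulators or targets) were chosen after their values were seen. A pair was computed where each gene had 10 or more counts per library, which left out 3 of 33.

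Ratios were tested by exact sign-flip permutation with Benjamini-Hochberg adjustment. Variation between libraries used edgeR 4.0.16 in R 4.3.3 (TMM, filterByExpr, intercept-only fit with trended dispersion, deviance goodness-of-fit, Benjamini-Hochberg at 0.05). The test was also run on data simulated with a common dispersion, not the trended one, and the outcome is not given here. A quasi-likelihood test needs more than 1 group. Alternatives included DESeq2 1.42.0. Other steps used Python 3.11.15, numpy 2.4.6, pandas 2.3.3 and matplotlib 3.10.9. Promoters and microRNAs came from RefSeq tables on GRCm38.p6.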

Additional observations from a re-analysis of the deposited data

How the results depend on the processing

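No paired comparison of conditions was possible because the 3 libraries form 1 group, while ratios between paralogs were taken within each library. Detection (53 members at 1 TPM, 45 at 5 TPM and 54 at 0.5 TPM) and the family ratios other than CELF kept their direction in every alternative run. The CELF ratio, 0.86 in TPM, reversed to -0.64 in CPM and to -0.15 with the mean of log2(TPM + 0.1) per class. Of the 30 pairs, 21 kept their sign. In CPM the sign reversed for Rbfox3 over Rbfox2 (-0.27), Celf3 over Celf2 (-1.68), Celf4 over Celf1 (-0.92), Celf4 over Celf2 (-0.25), Celf5 over Celf2 (-1.22), Nova2 over Nova1 (0.21), Fxr2 over Fmr1 (-0.42) and Igf2bp1 over Igf2bp2 (0.40). With the longest annotated transcript as length it reversed for Celf3 over Celf2 (-0.28), Celf5 over Celf2 (-0.20) and Hnrnpr over Syncrip (-1.10). Leaving out 1 library gave -0.24 to 0.47 for Rbfox3 over Rbfox2, -0.050 to 0.42 for Celf4 over Celf1, -0.25 to 0.20 for Nova2 over Nova1 and -0.17 to 0.13 for Igf2bp1 over Igf2bp2. The causes were not tested, except that CPM makes no correction for length.

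Genes called in the variation test numbered 24, 57 with the length trend removed, 4 by DESeq2 dispersion outliers, and 2 to 27 when 1 library was left out (7 without library A, 2 without library B). Members called were 1 of 54 as reported, 0 with the GC trend removed, 0 by DESeq2, and 0 without any 1 library. In those fits the adjusted p of Sf3a2 was 0.103 with the GC trend removed and 0.0634 to 0.964 without a library. The cause was not tested. Genes with few counts (Srsf1, Mbnl3, Rbm24 and Lin28a) limit what depth allows for these members.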

Other observations

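The patch scaffolds of the deposited tables list 174 genes, of which 3 had any count. Of 72 chromosome genes with a copy on such a scaffold, 3 averaged at least 1 TPM. These genes are read here with the same limit as Srsf1, and the cause was not tested.

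Mir124a-1hg, a host gene of miR-124, had log2 CPM 1.73 above the mean of the other libraries in library A, and did not pass the test of variation between libraries (edgeR adjusted p = 0.370). Mir124-2hg was also highest in library A, at 12.5 TPM against 7.25 and 9.63 TPM in libraries B and D. So were 42.6% of all genes at 1 TPM or more in TPM. In the list of regulators and textbook targets 6 of the 7 genes at that level were (85.7%), so this order is not particular to the host genes.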
